A study of Mus musculus with 12 samples.

Results

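The nuclei described here were chosen by their own expression of a macrophage marker set led by Gpnmb, Atp6v0d2 and St18. Of 106898 nuclei kept from 12 single-nucleus RNA libraries of mouse adipose tissue, 955 (0.893%) met the rule and are called members below. A nucleus was kept when it had at least 300 detected genes and at most 10% mitochondrial unique molecular identifiers (UMIs, each standing for 1 captured RNA molecule). A member then needed at least 2 summed UMIs of Gpnmb, Atp6v0d2 and St18, and at least 3 summed UMIs of those genes with Cd84, Lgals3 and Myo1f. This 6-gene sum also had to exceed the sum of Mrc1, F13a1 and Cd163, and the sum of Adipoq, Plin1, Acsl1, Flt1, Lama2 and Dcn. Since UMIs of these 15 genes chose the members, their levels are given as descriptions.

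All animals were male C57BL/6J mice on normal chow. Each library came from 1 of 4 adipose depots, which the labels name mPRAT, lPRAT, iBAT and iWAT. Mice were held at 22 °C and their libraries are titled 1, 2 or 6 months (mPRAT and iBAT), 2 or 6 months (lPRAT) and 6 months (iWAT). A further library each of mPRAT, iBAT and iWAT, titled 6 months, came from mice kept at 4 °C for 3 days. The sample characteristics give 4, 8 and 16 weeks in place of 1, 2 and 6 months, so the age of the oldest mice differs between the 2 sets of labels and the titles are used as names here. Nuclei were stained with 7-AAD and sorted before loading, so every share below is a share of sorted nuclei. The labels do not say how many animals were pooled, and each group is 1 library. No test between groups is therefore given, and the 95% intervals below are exact binomial or Poisson intervals that cover counting error only.

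Lipid-associated macrophages are macrophages of fat and other lipid-rich tissues that take up lipid from neighbouring cells and degrade it in lysosomes. Gpnmb encodes a transmembrane glycoprotein of lysosomes and related organelles. Atp6v0d2 encodes a d subunit of the vacuolar proton pump (V-ATPase), which acidifies lysosomes, and is also a subunit of the pump of osteoclasts and of kidney intercalated cells. St18 is a zinc-finger transcription factor, and Lgals3 encodes galectin-3, a sugar-binding protein of phagocytes that binds damaged lysosomes. Mrc1, F13a1 and Cd163 mark the perivascular and interstitial macrophages that reside in many tissues. On GRCm38, Gpnmb (ENSMUSG00000029816) lies at chr6:49036546-49070929, Atp6v0d2 (ENSMUSG00000028238) at chr4:19876841-19922605, St18 (ENSMUSG00000033740) at chr1:6487231-6860940 and Lgals3 (ENSMUSG00000050335) at chr14:47367751-47386160. All are annotated as protein coding.

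Members were set beside the nuclei led by the competing macrophage genes, called Mrc1-group nuclei: non-members with at least 2 summed UMIs of Mrc1, F13a1 and Cd163, above both other sums. There were 2859 of them. Nuclei led by Adipoq, Plin1 and Acsl1 (68171, called adipocytes) gave the background from free RNA. The libraries held from 4328 to 21384 barcodes and from 5461133 to 87035783 UMIs. Of the kept barcodes, 1414 (1.34%) occurred in more than 1 library, as did the barcodes of 27 members (2.83%), and 0 barcodes were members in 2 libraries. Doublets were scored but not removed.

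The macrophage label was checked against 18 genes that the rule did not use, among them Csf1r, Adgre1 (F4/80), Ptprc (CD45), Dock2 and Spi1. In lPRAT at 6 months, 786 of 787 members had at least 1 UMI of this list. Their level was 9.33 UMIs per 1000, against 8.59 in Mrc1-group nuclei and 0.193 in adipocytes. In mPRAT at 1 and 2 months the data went against the label. Of the 22 nuclei there that met the rule, 16 had no UMI of the macrophage list, against 4 of the 933 members elsewhere. Of those 22, 15 carried UMIs of a kidney intercalated-cell list, among them 10 of the 14 nuclei at 2 months. Elsewhere 10 of 933 members carried one. Nuclei of both young mPRAT libraries are given by their counts alone and are not described as macrophages. In mPRAT at 6 months 0 of 41 members lacked UMIs of the macrophage list. Of adipocytes in that library, 57.3% also had at least 1 such UMI, so presence alone separates the classes poorly there. The levels were 7.06 UMIs per 1000 in members and 0.480 in adipocytes. Of the 41 members, however, 19 carried other genes and no Adgre1, as described below.

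Members were concentrated in 1 library. lPRAT at 6 months held 787 of the 955 (82.4%), which was 13.2% of its 5966 kept nuclei (95% interval 12.3% to 14.1%). lPRAT at 2 months held 3 of 3279 (0.0915%, interval 0.0189% to 0.267%). The difference was 13.1 percentage points (interval 12.2 to 13.99) and the ratio 144 (49.2 to 701). Mrc1-group nuclei moved far less between the same libraries, from 6.16% to 7.69%, a difference of 1.53 points (0.433 to 2.60), or 0.824 points at 1000 UMIs (-0.610 to 2.11). Members thus made up 63.2% of the 1246 macrophages defined by either marker set at 6 months (60.4% to 65.8%) and 1.46% of 205 at 2 months (0.303% to 4.22%).

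The 2 lPRAT libraries differed in depth, with medians of 880 UMIs per kept nucleus at 2 months and 2547 at 6 months. When each nucleus was thinned to 1000 UMIs, members were 630 of 4900 nuclei at 6 months (12.9%). At 2 months they were 0 of 1382, which allows up to 0.267%. Thinning to 500 UMIs, an alternative chosen after seeing the data, keeps every nucleus and left 6.72% at 6 months and 0.0305% at 2 months. Mrc1-group nuclei at 6 months were 6.87% at that depth, so members no longer outnumbered them. Of the barcodes with at least 300 genes, 21.4% at 2 months and 5.29% at 6 months were over the mitochondrial limit. Age and library cannot be told apart here, since each age is 1 library.

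At 6 months and 22 °C the other depots lay far below lPRAT. iWAT held 58 members of 8280 nuclei (0.700%, 0.532% to 0.905%), mPRAT 41 of 11412 (0.359%, 0.258% to 0.487%) and iBAT 10 of 21115 (0.0474%, 0.0227% to 0.0871%). lPRAT exceeded iWAT by a ratio of 18.8 (14.4 to 25.03), mPRAT by 36.7 (26.8 to 51.6) and iBAT by 279 (151 to 583). At 1000 UMIs these ratios were 26.7 (18.9 to 38.9), 96.3 (56.9 to 177) and 463 (198 to 1432). In iWAT, 80 further nuclei met both marker minimums but fell below a competing sum, 68 of them below the other-lineage sum. Such nuclei numbered 79 in lPRAT, 8 in mPRAT and 9 in iBAT. No alternative run changed the competing sums, so the ratios hold for this rule only. Among marker-defined macrophages, members were 10.5% of 555 in iWAT, 11.3% of 363 in mPRAT and 4.83% of 207 in iBAT. At 1000 UMIs these were 9.21%, 5.38% and 6.25%. Mrc1-group nuclei had the same order of depots, at 7.69% of nuclei in lPRAT, 6.00% in iWAT, 2.82% in mPRAT and 0.933% in iBAT. Between lPRAT and iWAT their difference was 1.69 points, against 12.5 points for members. Across the 11 libraries other than lPRAT at 6 months the member share ran from 0% to 0.700% with a median of 0.141%. The 2-month iBAT library was the one with none, 0 of 12497, with a floor of 3 nuclei at 0.0240% and an exact 95% upper limit of 0.0295%.

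**Figure D1:**
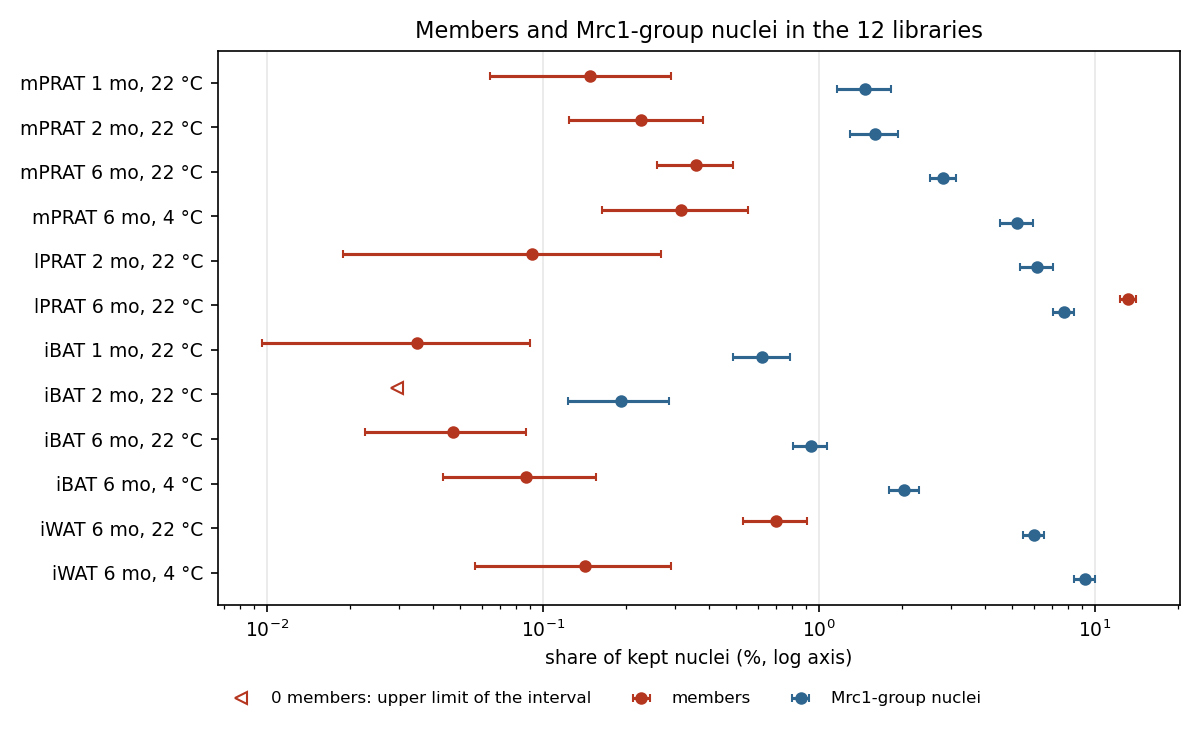
Share of kept nuclei (percent, log axis) that were members (red) or Mrc1-group nuclei (blue) in each of the 12 libraries, with 95% exact binomial intervals. The open triangle is the upper limit where no member was found. lPRAT at 6 months, at 13.2%, is the one library in which members outnumbered Mrc1-group nuclei. Thinned to 500 UMIs, it held 401 members and 410 Mrc1-group nuclei.

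Among mPRAT libraries at 22 °C the share of nuclei meeting the rule was 0.148% at 1 month (8 of 5391), 0.227% at 2 months (14 of 6156) and 0.359% at 6 months. Steps between neighbouring ages were 0.0790 points (-0.0979 to 0.255) and 0.132 points (-0.0524 to 0.296), both intervals including 0, and most nuclei at the 2 younger ages lacked macrophage UMIs. At 1000 UMIs these steps were -0.0177 points (-0.183 to 0.122) and 0.0694 points (-0.0678 to 0.173). At 500 UMIs they were 0.0302 and -0.00492 points, so each step turned sign under some thinning. In iBAT the 1-month library held 4 of 11398 (0.0351%), so all 3 iBAT ages lay at or under 0.0474%. The step from 2 to 6 months in iBAT was 0.0474 points (0.00891 to 0.0871), and rests on 10 members against 0. At matched depth its interval included 0, with 0.0277 points (-0.0155 to 0.0647) at 1000 UMIs and 0.0189 (-0.0136 to 0.0485) at 500.

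After 3 days at 4 °C, members were fewer in iWAT, 7 of 4949 (0.141%) against 58 of 8280. The difference was -0.559 points (-0.780 to -0.334), a ratio of 0.202 (0.07775 to 0.443). Mrc1-group nuclei moved the other way, from 6.00% to 9.19% (3.19 points, 2.24 to 4.17). At 1000 UMIs the Mrc1-group shares were 4.75% and 5.63%, a difference of 0.886 points (0.0141 to 1.79). Medians were 2966 UMIs per kept nucleus in the cold library and 4224 at 22 °C. At 1000 UMIs the iWAT difference was smaller, -0.305 points (-0.523 to -0.0664). A further 34 nuclei of the cold iWAT library and 80 at 22 °C met both marker minimums but fell below a competing sum. The iWAT difference and ratio therefore hold for this rule only. Levels of Gpnmb, Atp6v0d2 and St18 over all kept iWAT nuclei are given further below. That of Gpnmb had overlapping intervals in the cold and 22 °C iWAT libraries. In mPRAT the share was 0.317% (12 of 3781) in the cold library and 0.359% in the 22 °C library, a difference of -0.0419 points (-0.241 to 0.215). In that mPRAT cold library 66.0% of barcodes with at least 300 genes were over the mitochondrial limit. Lifting that limit added 7353 barcodes to the cold library, of which 6 met the marker sums, giving 18 of 11134. The difference was then -0.207 points (-0.351 to -0.0690), an interval that excludes 0. It came with a larger denominator and not with fewer members. The sign turned at 1000 UMIs (0.0456 points) and with at least 3 UMIs of the 3 genes (0.0105 points). Of marker-defined macrophages, members were 5.74% in the cold library and 11.3% in the 22 °C library, a difference of -5.55 points (-10.2 to -0.455). At 1000 UMIs these were 4.05% and 5.38%, a difference of -1.33 points whose interval includes 0 (-5.65 to 3.83). In iBAT it was 0.0868% (11 of 12674) against 0.0474%, a difference of 0.0394 points (-0.0194 to 0.112), which turned to -0.00316 at 500 UMIs. Mrc1-group shares were higher in the cold library of all 3 depots that had one, by 2.39 points in mPRAT and 1.10 in iBAT.

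Members of lPRAT at 6 months stood well inside the rule. Their median was 10 UMIs of Gpnmb, Atp6v0d2 and St18, and 21 UMIs of the 6 genes, beside 2 of Mrc1, F13a1 and Cd163 and 0 of the 6 other-lineage genes. At the edge, 46 members had exactly 2 UMIs of the 3 genes and 11 led by 1 UMI. Just outside, 52 nuclei had 1 UMI of the 3 genes and met the rest, 11 tied and 79 fell below a competing sum, 55 of them below the Mrc1 sum. Macrophage-list UMIs per 1000 were 9.84 in the 46 and 10.2 in the 52, so nuclei on both sides of that edge carried macrophage UMIs at a like level.

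The 4 marker genes were unevenly spread over these members. Gpnmb was found in 524 of 787 members, with a median of 1 UMI, 16 at the 90th percentile and 216 at the highest. Atp6v0d2 was found in 690, St18 in 679 and Lgals3 in 663, and 409 members had UMIs of Gpnmb, Atp6v0d2 and St18 together. Members were deeper than Mrc1-group nuclei of the same library, with medians of 2803 and 1276 UMIs and 1600 and 917 genes. At 1000 UMIs, Gpnmb was detected in 49.1% of 758 members, 3.10% of 290 Mrc1-group nuclei and 1.04% of 2026 adipocytes, whose median depth before thinning was 6746 UMIs. Mitochondrial UMIs had a median of 0.132% in members and 0.445% in Mrc1-group nuclei. High doublet scores were held by 5.59% of members, 3.92% of Mrc1-group nuclei and 4.54% of all kept nuclei.

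Levels over all kept nuclei of a library, summed without the marker rule, are given next. Those of the rule's own genes restate the choice of members. Levels are given in CPM, UMIs per 1000000. Gpnmb was at 190 CPM in lPRAT at 6 months (184 to 195), with 93.1% of its UMIs in members, and from 1.11 to 14.99 CPM in the other 11 libraries. Atp6v0d2 was at 171 CPM there and at most 5.89 elsewhere, and St18 at 174 and at most 11.1. Of the 15 genes of a list of lipid-associated macrophage genes outside the rule, 6 were highest in lPRAT at 6 months and 9 in another library. The share of all genes that were highest in that library was not computed. Of the 6, members held 90.8% of Mmp12 UMIs there, 74.0% of Trem2 and 72.4% of Itgax. They held 26.9% of Cd63 UMIs, 15.6% of Apoe and 9.21% of Lgals1, so most UMIs of these came from other nuclei. Mmp12, which encodes macrophage elastase, was at 56.9 CPM (54.0 to 59.9) and at most 1.69 elsewhere. Trem2, a lipid-sensing receptor of lipid-associated macrophages, was at 30.0 CPM and at most 2.16 elsewhere. Outside the list, Adam8, a membrane protease, was at 36.1 CPM and at most 4.23 elsewhere. Cd9 was at 26.9 CPM against 68.0 in mPRAT at 2 months, Spp1 at 0.353 against 37.5 in mPRAT at 1 month, and Lpl at 802 against 1823 in iWAT after cold. These genes are also expressed outside macrophages. Il7r, the interleukin-7 receptor of lymphocytes, was not highest in this library, with 28.2 CPM against 42.6 in mPRAT at 6 months.

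**Figure D2:**
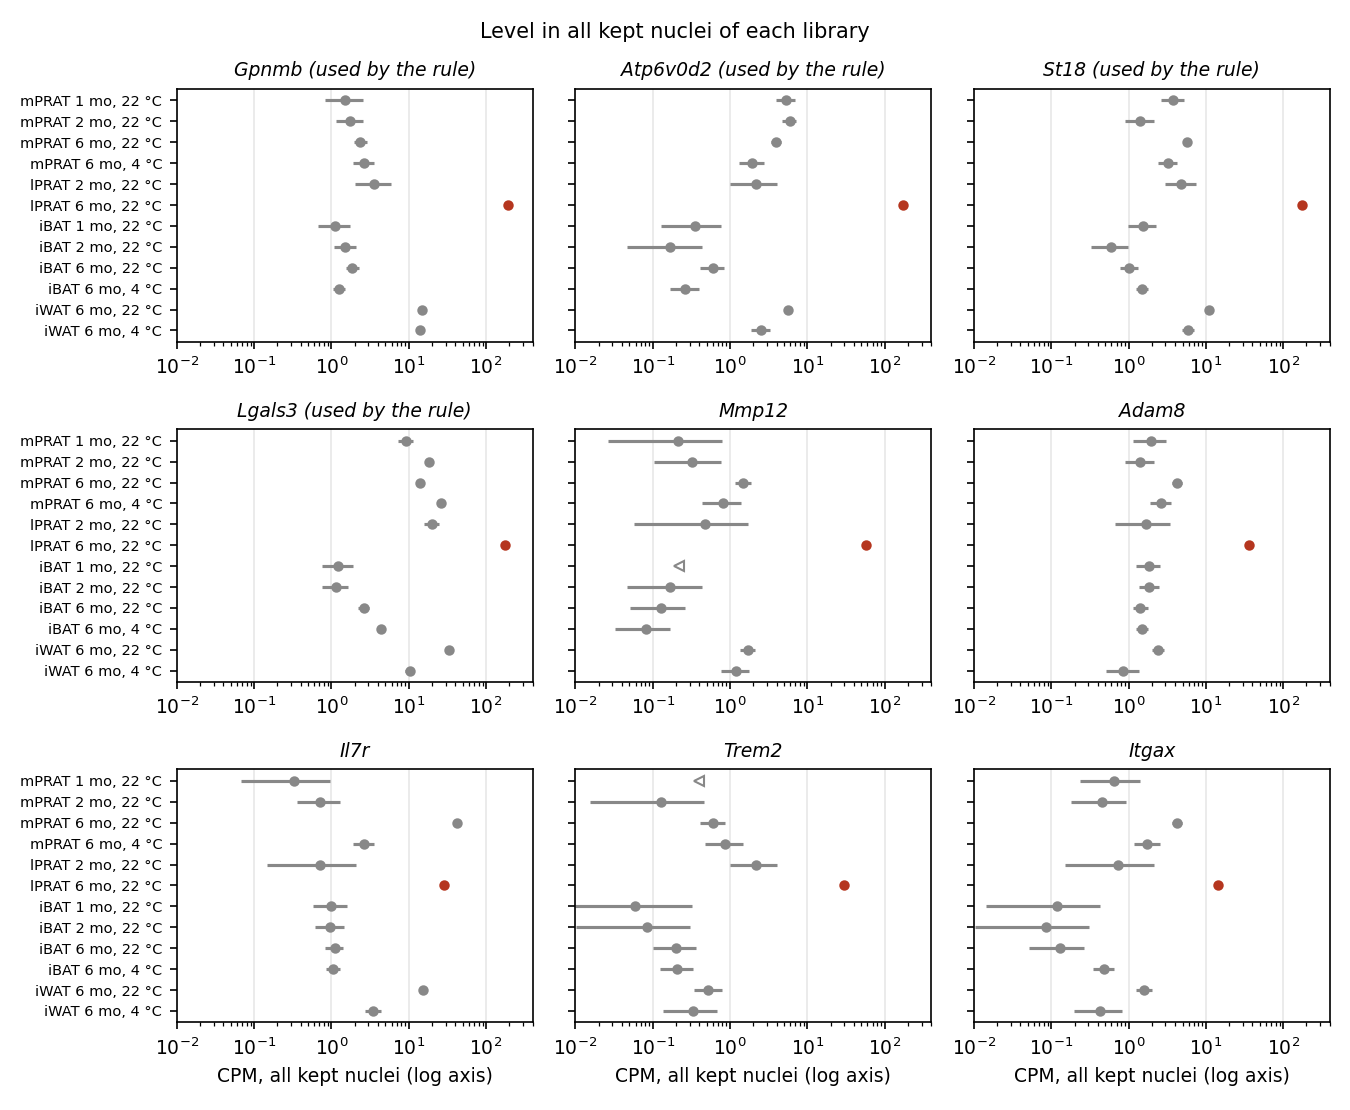
Level of 9 genes in all kept nuclei of each of the 12 libraries (CPM, log axis), with 95% Poisson intervals of counting error. Open triangles are upper limits where no UMI was found. The genes were picked for display, and Gpnmb, Atp6v0d2, St18 and Lgals3 are genes of the rule, so their rank restates the choice of members. lPRAT at 6 months (red) is highest for 8 of the 9, while Il7r is higher in mPRAT at 6 months. Of the whole lipid-associated list, 6 of 15 genes are highest in lPRAT at 6 months.

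Next, summed UMIs of members and Mrc1-group nuclei were compared gene by gene within lPRAT at 6 months. Ratios are on the log2 scale with 10 CPM added to both, which shrinks low genes, unless called plain. The marker sums that made the classes come from these same nuclei, so the ratios describe the classes and are given no test. Of 10514 genes with at least 20 UMIs, 405 (3.85%) were at least 2-fold higher in members and 545 (5.18%) at least 2-fold lower. The median over these genes was -0.04. With 1 CPM added in place of 10, 782 genes were higher and 970 lower. TMM scaling moved the median to 0.07 and gave 488 higher and 454 lower genes, and no gene named below that was past the 2-fold limit changed sign under the alternatives run.

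The lipid-associated list held 14 measured genes outside the rule, of which 10 were at least 2-fold higher in members and 1 lower, with a median of 1.56. Mmp12 was at 470 CPM in members (445 to 496) and 7.69 in Mrc1-group nuclei (2.82 to 16.7), a plain ratio of 61.1 (28.0 to 167). Its 1315 UMIs came from 210 members. Trem2 was at 202 and 64.1 CPM, a ratio of 3.16 (2.36 to 4.31). Itgax, the integrin CD11c, was at 94.8 and 12.8 CPM (ratio 7.39), and the tetraspanin Cd9 at 95.8 and 18.0 (ratio 5.34). Fabp5, a fatty acid chaperone, had 88 UMIs in members and 2 in Mrc1-group nuclei, a ratio of 12.3 with a wide interval (3.30 to 103). Spp1 (osteopontin), often used to mark such macrophages, was near its limit with 7 and 0 UMIs. Apoe was the list's gene that lay lower, at 327 CPM in members and 2336 in Mrc1-group nuclei, a ratio of 0.140 (0.129 to 0.152).

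**Figure D3:**
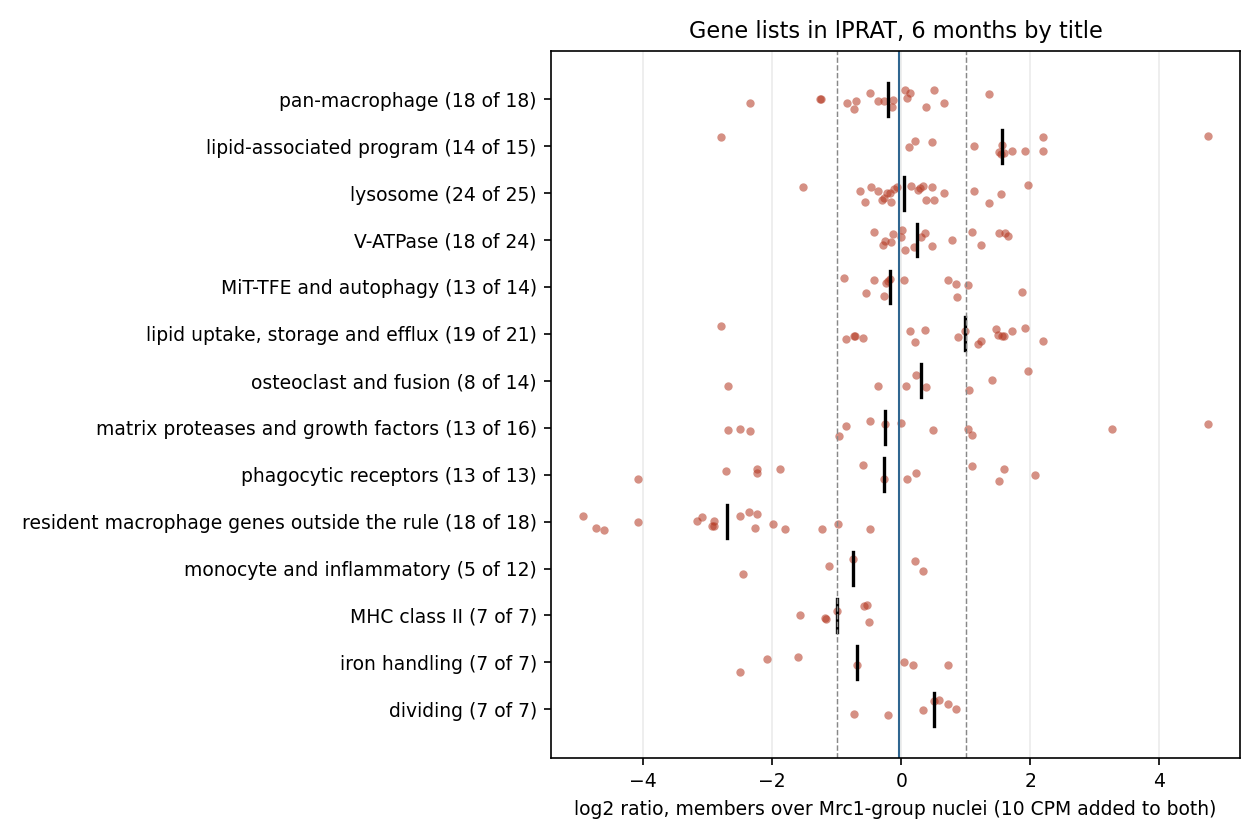
Log2 ratio of members over Mrc1-group nuclei in lPRAT at 6 months for each measured gene of 14 lists (points), with list medians (black bars), the all-gene median of -0.04 (blue line) and 2-fold limits (dashed). Labels give measured genes of all genes in the list. The lipid-associated list has the highest median, 1.56, and the resident macrophage list the lowest, -2.70.

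Genes of lipid uptake, storage and efflux gave 9 of 19 higher and 1 lower, with a median of 0.99. Lpl, Cd36, Plin2, Fabp4, Fabp5 and Apoe are also in the lipid-associated list, so the 2 counts overlap. The lower gene was again Apoe. The uptake genes were led by Lpl, the lipoprotein lipase that frees fatty acids from triglyceride, at 1580 and 336 CPM (ratio 4.70, 4.15 to 5.35). The scavenger receptor and fatty acid transporter Cd36 was at 3463 and 1145 CPM (ratio 3.02), and the endocytic receptor Lrp1 at 667 and 277 (ratio 2.41). Msr1, another scavenger receptor, was at 214 and 326 CPM, inside the 2-fold limits. Adipocytes also express Lpl and Cd36, at 881 and 1918 CPM, both under the member level.

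Plin2, which coats lipid droplets in most cells, was at 1375 and 457 CPM (ratio 3.01, 2.70 to 3.37), and Soat1, which esterifies cholesterol, at 418 and 178 (ratio 2.35). Nceh1, a hydrolase of cholesteryl esters, was at 529 and 132 CPM (ratio 4.00, 3.28 to 4.94). Lipa, the lysosomal acid lipase, was at 542 and 180 (ratio 3.02). At 1000 UMIs Nceh1 was detected in 38.9% of members, 13.1% of Mrc1-group nuclei and 0.148% of adipocytes, so its level in members was far above the adipocyte background. The triglyceride synthesis genes Dgat1 and Dgat2 were low, at 35.4 and 71.8 CPM and at 13.9 and 29.5, and inside the limits on the log2 scale.

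Abcg1, which exports cholesterol to HDL, was at 346 and 119 CPM (ratio 2.90, 2.34 to 3.63). Abca1, which exports it to apolipoprotein A-I, was at 808 and 1348 CPM (ratio 0.599, 0.557 to 0.646), inside the 2-fold limit. Among regulators, Pparg, a fatty acid-sensing nuclear receptor, was at 656 and 224 CPM (ratio 2.92, 2.503 to 3.43). Adipocytes express Pparg at 2523 CPM, and the part of adipocyte RNA in the member level was not tested. Of 7 measured adipocyte genes outside the rule, 0 were higher in members and 1 lower, with a median of -0.88. Both classes were limited by the sum that holds Adipoq, Plin1 and Acsl1. At 1000 UMIs Cidec, an adipocyte droplet gene, was detected in 5.67% of members, 10.0% of Mrc1-group nuclei and 79.1% of adipocytes.

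**Figure D4:**
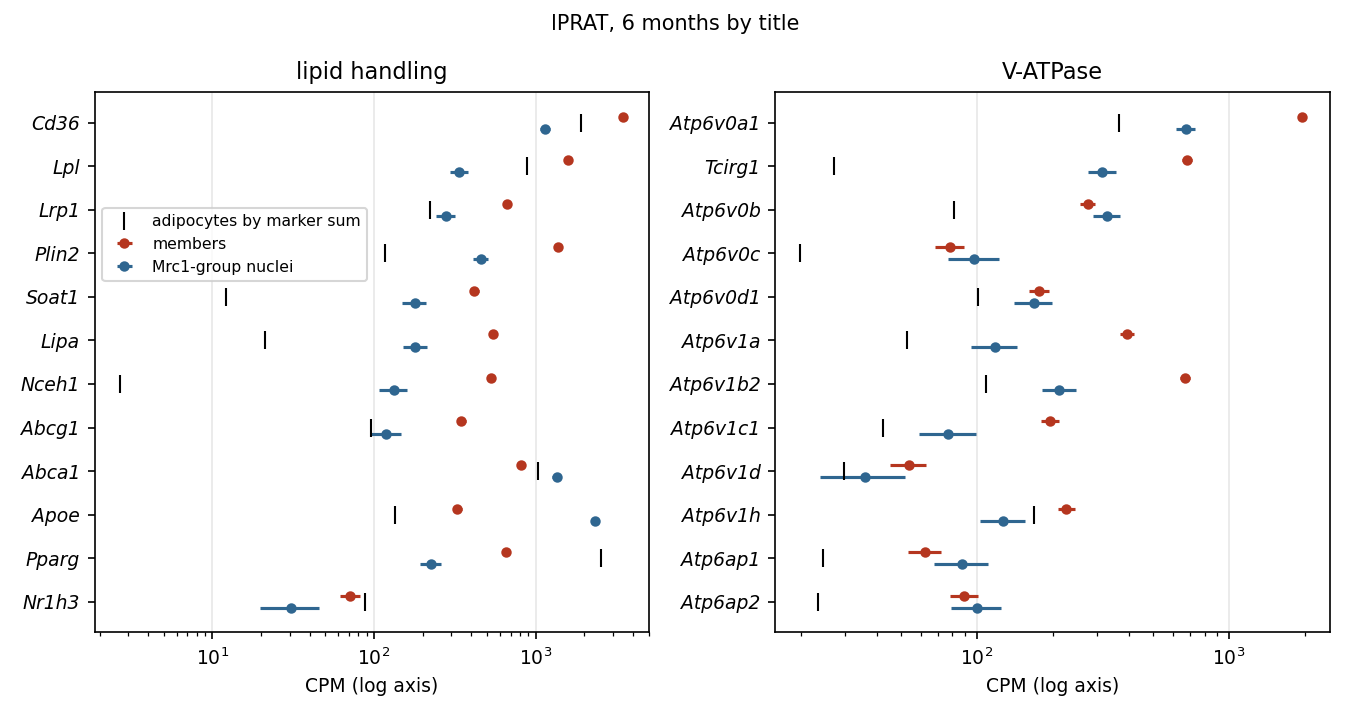
Level (CPM, log axis) of 12 lipid-handling genes and 12 V-ATPase genes in lPRAT at 6 months, in members (red), Mrc1-group nuclei (blue) and adipocytes (black ticks). Bars are 95% Poisson intervals and are hidden where narrower than the point. Lpl, Plin2 and Nceh1 lie higher in members, Apoe lower, and Atp6v0d1 is at 176 CPM in members and 168 in Mrc1-group nuclei.

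Of the V-ATPase, whose d2 subunit is part of the rule, 18 other subunit and accessory genes were measured. Of these, 5 were at least 2-fold higher in members and 0 lower, with a median of 0.25. In the membrane sector, the a1 subunit Atp6v0a1 was at 1941 and 673 CPM (ratio 2.88, 2.64 to 3.16) and the a3 subunit Tcirg1, known from osteoclasts, at 684 and 313 (ratio 2.19). Atp6v0d1, the widely expressed d subunit, was at 176 and 168 CPM (ratio 1.05, 0.864 to 1.28). In the catalytic sector, subunit A (Atp6v1a) was at 394 and 118 CPM (ratio 3.34, 2.70 to 4.18), B2 (Atp6v1b2) at 668 and 212 (ratio 3.16), and C1 (Atp6v1c1) at 195 and 76.9 (ratio 2.53). The other measured subunits, among them Atp6v0b, Atp6v0c and Atp6ap2, stayed inside the 2-fold limits.

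Lysosomal and V-ATPase genes are known targets of the MiT-TFE factors, which bind E-box sequences. Promoters of GRCm38.p6 from RefSeq, 250 bases before to 50 after a gene's start, were searched on both strands for CACGTG, which reads the same on both, and for the wider CANNTG, which includes it. CACGTG was in 7.15% of 32851 promoters and CANNTG in 72.3%. CACGTG was found in 4 of 19 V-ATPase genes in the table, 6 of 19 lysosome genes, 2 of 14 MiT-TFE and autophagy genes and 3 of 13 lipid genes. A gene was counted when any of its promoters held the letters. These counts of genes therefore cannot be read against the 7.15% of single promoters, and no share over all genes was computed. Of those 4 V-ATPase genes, Atp6v1a was among the higher ones, and Atp6v0b, Atp6v0d1 and Atp6v0e were inside the 2-fold limits. Of the 3 lipid genes, Nceh1 and Plin2 were higher and Abca1 had a ratio of 0.599, and of the 6 lysosome genes Ctsl alone was at least 2-fold higher. The first 3 sequences are of higher genes and are printed because they hold CACGTG, and Gpnmb because it names the members. Capitals mark CACGTG, and in Gpnmb its 2 CANNTG matches. A match describes letters and shows no binding.
Atp6v1a, GRCm38.p6 chr16:44139210-44139509, minus strand: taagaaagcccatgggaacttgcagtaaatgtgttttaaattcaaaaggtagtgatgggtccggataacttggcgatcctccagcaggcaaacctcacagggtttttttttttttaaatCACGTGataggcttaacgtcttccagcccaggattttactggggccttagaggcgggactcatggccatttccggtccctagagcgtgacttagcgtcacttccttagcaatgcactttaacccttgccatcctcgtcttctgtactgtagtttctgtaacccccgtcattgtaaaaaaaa
Nceh1, GRCm38.p6 chr3:27182754-27183053, plus strand: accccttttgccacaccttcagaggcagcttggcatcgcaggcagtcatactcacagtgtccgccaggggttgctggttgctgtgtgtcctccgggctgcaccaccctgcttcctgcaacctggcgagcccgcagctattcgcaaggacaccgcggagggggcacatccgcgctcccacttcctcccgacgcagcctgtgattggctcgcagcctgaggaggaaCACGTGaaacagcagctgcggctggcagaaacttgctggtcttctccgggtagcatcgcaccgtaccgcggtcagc
Plin2, GRCm38.p6 chr4:86670010-86670309, minus strand: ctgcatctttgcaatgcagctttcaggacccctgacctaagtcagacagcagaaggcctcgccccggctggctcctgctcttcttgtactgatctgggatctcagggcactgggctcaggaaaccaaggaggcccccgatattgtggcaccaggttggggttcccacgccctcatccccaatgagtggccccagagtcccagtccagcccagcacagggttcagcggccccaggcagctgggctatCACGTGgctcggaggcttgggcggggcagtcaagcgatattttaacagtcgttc
Gpnmb, GRCm38.p6 chr6:49036268-49036567, plus strand: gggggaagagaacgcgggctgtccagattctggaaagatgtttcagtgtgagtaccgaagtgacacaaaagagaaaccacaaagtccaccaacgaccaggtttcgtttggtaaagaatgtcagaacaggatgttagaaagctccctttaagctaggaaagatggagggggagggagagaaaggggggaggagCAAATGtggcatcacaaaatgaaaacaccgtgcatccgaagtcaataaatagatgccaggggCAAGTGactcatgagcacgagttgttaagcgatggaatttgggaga

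The factors and their regulators varied. Of 13 measured MiT-TFE and autophagy genes, 2 were higher, 0 lower and the median was -0.18. Mitf was at 3947 and 1911 CPM (ratio 2.07, 1.96 to 2.18). Fnip2, a partner of folliculin in the lysosomal control of these factors, was at 936 and 249 CPM (ratio 3.76, 3.25 to 4.37). Tfeb was at 234 and 123 CPM (ratio 1.90), and Tfe3, at 60.8 and 73.1, lay inside the limits.

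The lysosome list shares Lipa, Ctsl and Cd63 with the lipid-associated list. Lysosomal enzymes and membrane proteins as a list were near the all-gene median (0.04), with 4 of 24 higher and 1 lower. The higher ones were Lipa and the cathepsins Ctss at 595 and 226 CPM (ratio 2.64), Ctsl at 278 and 122 (ratio 2.28) and Ctsk, the osteoclast collagenase, at 83.7 and 14.1 (ratio 5.93, 3.26 to 12.05). Cathepsins B and D, by contrast, were at 859 and 1105 CPM and at 410 and 431. Grn, which encodes progranulin, a lysosomal growth factor, was lower at 222 and 659 CPM (ratio 0.338, 0.300 to 0.380).

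Atp6v0d2, Ctsk and Tcirg1 also belong to osteoclasts, so osteoclast genes were read as a list. Of 14, 8 were measured, with 3 higher and 1 lower. Tnfrsf11a, the receptor RANK, was at 462 and 218 CPM (ratio 2.12). Dcstamp, needed for cell fusion, had 46 UMIs in 29 members and 0 in Mrc1-group nuclei, at least 4.28-fold higher at a floor of 3 UMIs over that class, with a 95% lower limit of 3.34. The osteoclast protease Mmp9 was lower, with 6 UMIs in members and 53 in Mrc1-group nuclei. Calcr and Oscar, which mark mature osteoclasts, had 1 and 2 UMIs, and Ocstamp 0.

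Other secreted and receptor genes went in both directions. Of 13 matrix protease and growth factor genes 4 were higher and 3 lower. Adam8 was at 284 and 20.5 CPM (ratio 13.8, 8.47 to 24.3), while fibronectin (Fn1) was at 79.4 and 442 (ratio 0.179) and Tgfbi, a matrix protein, at 26.1 and 195 (ratio 0.134). Of 13 phagocytic receptors 4 were higher and 5 lower. The integrin subunit Itgav was at 438 and 96.2 CPM (ratio 4.56, 3.61 to 5.84) and Cd300lb, an activating receptor, at 497 and 228 (ratio 2.18). Timd4, a phosphatidylserine receptor of resident macrophages, had 1 UMI in members and 129 in Mrc1-group nuclei, and Mertk, which clears apoptotic cells, was at 746 and 903 CPM.

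Genes of resident macrophages outside the rule were lower almost throughout. Of 18, 16 were at least 2-fold lower in members and 0 higher, with a median of -2.70. Lyve1, a hyaluronan receptor, was at 2.15 and 285 CPM. The complement genes C1qa and C1qc were at 39.3 and 360 CPM and at 100.9 and 559, and the transcription factor Maf at 134 and 1064 (ratio 0.126, 0.111 to 0.142). Selenop and Igf1 were the genes inside the limits, with log2 ratios of -0.98 and -0.48. The list was chosen for nuclei like those the Mrc1 group collects, so its direction is no independent evidence.

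Antigen presentation, iron and monocyte genes were lower or inside the limits. Of 7 MHC class II genes 3 were lower and 0 higher, with a median of -0.99: the invariant chain Cd74 was at 223 and 521 CPM (ratio 0.428, 0.377 to 0.486). Of 7 iron genes 3 were lower, among them the transferrin receptor Tfrc at 68.3 and 322 CPM (ratio 0.212) and the iron exporter Slc40a1 with 18 and 31 UMIs. Of 12 monocyte and inflammatory genes 5 were measured, with 2 lower. Ccr2, the receptor of recruited monocytes, was at 6.44 and 79.5 CPM. Il1b, Nos2 and Il6 had 0 UMIs in the 787 members, where 3 UMIs would be the floor. General macrophage genes went in both directions, 1 higher and 3 lower of 18. Adgre1 was at 960 and 922 CPM (ratio 1.04, 0.959 to 1.13) and Ptprc at 1114 and 848, whereas Csf1r, the receptor for macrophage colony-stimulating factor, was at 152 and 373 (ratio 0.408) and Lyz2 at 143 and 763 (ratio 0.187).

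Genes were also named by the size of the log2 ratio, 25 higher and 15 lower, some of them list genes already given. All 25 higher genes had a ratio above 0 in iWAT and in mPRAT at 6 months, as did 3594 of 7411 and 3610 of 7358 of all genes there. Some of these rest on few UMIs: Rnf128 had 3 and 13 UMIs in mPRAT (log2 ratio 0.03) and Dhrs9 1 and 0. After Mmp12 and Il7r, which had 660 UMIs in 268 members and 1 UMI in Mrc1-group nuclei, came Efr3b at 322 and 10.3 CPM and Igf2bp2, an RNA-binding protein, at 209 and 5.13. Rgs1, a regulator of chemokine signalling, was at 182 and 5.13 CPM, and the stress-response factor Atf3 at 167 and 8.98. Chst11, a chondroitin sulfotransferase, was at 376 and 26.9 CPM, Xylt1, which starts glycosaminoglycan chains, at 683 and 51.3, and the adhesion molecule Cadm1 at 818 and 71.8. Anxa1 (annexin A1) was at 496 and 53.9 CPM, Myo1e, an actin motor, at 2417 and 313, and coagulation factor F7 at 141 and 6.41. Fam83f had 164 UMIs in members and 0 in Mrc1-group nuclei, at least 15.2-fold higher at a floor of 3 UMIs over that class, with a 95% lower limit of 12.3. The rest were Adam8, Apbb2, Ksr2, Dhrs9, Zranb3, Ankdd1a, Tmem267, Fat3, C77080, Rnf128, Tnip3 and Airn. Airn overlaps Igf2r on the other strand, and the strand setting of the counting is not given in the sources used here.

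Of the 15 lower genes, 14 had a ratio under 0 in iWAT, 13 in mPRAT and 12 in both, against 3817 of 7411 and 3748 of 7358 of all genes. Wfdc17 counts in iWAT on 0 and 1 UMI. They included the lectins Fcna (3.93 and 417 CPM), Cd209f (2 and 213 UMIs), Cd209g and Cd209b, the secreted protein Retnla (10.4 and 540 CPM) and Lyve1. Ednrb, the endothelin B receptor, was at 5.72 and 345 CPM, and Cd38, an NAD-consuming enzyme, at 22.9 and 499. Ltc4s, Plekhg5, Cmah, Lifr and Wfdc17 were the others lower in all 3 libraries. Timd4 and Cd38 were higher in members of mPRAT, at 424 and 181 CPM and at 284 and 183, and Padi4 was not lower in iWAT, with 1 and 3 UMIs.

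Nuclei with cell-division UMIs made up a larger share of members at full depth. Counting nuclei with at least 3 UMIs of Mki67, Top2a, Cenpf, Cenpe, Kif11, Aspm and Tpx2, they were 37 of 787 members (4.70%, 3.33% to 6.42%), 6 of 459 Mrc1-group nuclei (1.31%, 0.481% to 2.82%) and 4 of 2047 adipocytes (0.195%). At 1000 UMIs and at least 2 UMIs of the list they were 32 of 758 (4.22%, 2.90% to 5.91%), 5 of 290 (1.72%, 0.562% to 3.98%) and 0 of 2026 (up to 0.182%), and the intervals of the first 2 overlapped. As levels, 0 of the 7 genes passed the 2-fold limit, with a median of 0.51, and Mki67 was at 49.4 and 23.1 CPM.

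Members of lPRAT were grouped by the amount of Gpnmb. The genes named below are examples picked from the lists, and no count over all genes is given. After thinning to 1000 UMIs, 386 members had 0 Gpnmb UMIs, 224 had 1 or 2, and 148 had 3 or more, with medians of 2875, 2714 and 3216 UMIs before thinning. Gpnmb is a gene of the rule. The strata were set after thinning, so the lowest one also holds members with Gpnmb UMIs at full depth. Mmp12 was at 168, 491 and 824 CPM over the 3 strata, with intervals that did not overlap between them (130 to 215, 404 to 592, 685 to 984). Such intervals count pooled UMIs as independent and leave out the spread between nuclei. Mmp12 was detected in 124 of the 758 thinned members. Fnip2 was at 588, 884 and 1804 CPM, again without overlap (514 to 670, 765 to 1016, 1594 to 2034). Itgax was at 54.4, 116 and 257 CPM, Ctsk at 41.5, 103 and 169, and Atp6v1a at 303, 402 and 615, with neighbouring intervals overlapping for some steps. Lgals3, in the rule, was at 813, 1290 and 2209 CPM. Summed over whole lists, lipid-associated genes were at 8249, 9496 and 10845 CPM and lysosome genes at 5622, 6705 and 7547. The V-ATPase list was at 4702, 5009 and 6473 CPM. Some list genes went the other way. Apoe was at 482, 522 and 216 CPM, Asah1 at 218, 232 and 115, and Tfec at 64.8, 35.7 and 13.5.

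Other genes ran the opposite way or stayed level. Dab2, an endocytic adaptor of resident macrophages, was at 409, 223 and 87.8 CPM, Csf1r at 215, 147 and 81.1, and Ciita, the regulator of MHC class II genes, at 197, 125 and 40.5. Cd74 was at 378, 254 and 155 CPM. The whole MHC class II list summed to 1212, 799 and 601 CPM. Within it, H2-Ab1 (153, 103 and 135) and H2-Aa (166, 116 and 128) had overlapping intervals over the strata. F13a1, in the rule, had 47 UMIs in the stratum with 0 Gpnmb UMIs after thinning, 8 in the middle stratum and 0 in the highest. Lpl was level at 1666, 1723 and 1622 CPM, as were Mitf (3938, 4004 and 3561) and Dock2 (4137, 4112 and 4203). The share with at least 2 dividing-list UMIs was 5.18% (3.19% to 7.89%), 4.46% (2.16% to 8.06%) and 1.35% (0.164% to 4.796%).

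**Figure D5:**
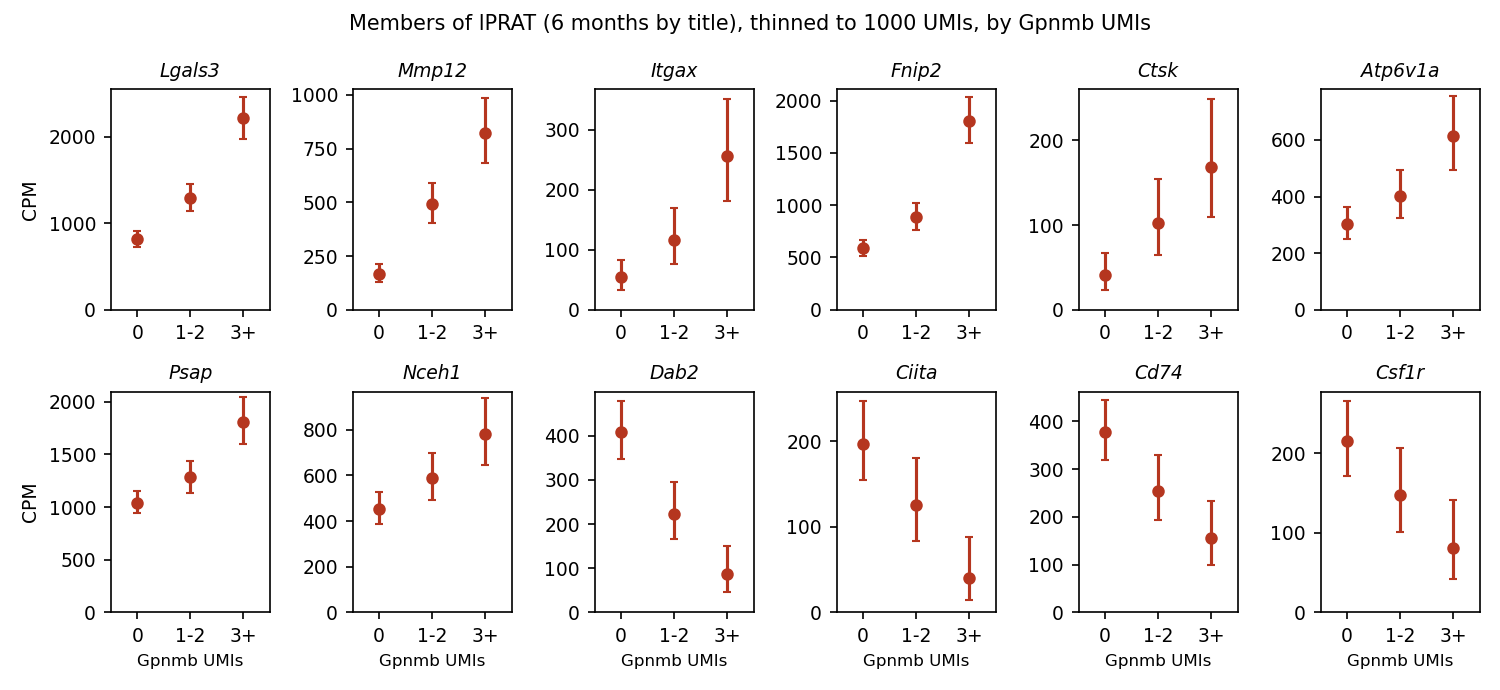
Level (CPM, each axis from 0) of 12 genes in members of lPRAT at 6 months thinned to 1000 UMIs, grouped by their Gpnmb UMIs (0 in 386 nuclei, 1 to 2 in 224, 3 or more in 148), with 95% Poisson intervals. The genes are picked examples. Mmp12 goes from 168 to 824 CPM and Dab2 from 409 to 87.8 CPM.

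Only iWAT and mPRAT at 6 months and 22 °C held at least 20 members besides lPRAT. In iWAT, 450 of 7411 genes (6.07%) were at least 2-fold higher in its 58 members than in its 497 Mrc1-group nuclei, and 614 (8.28%) lower. In mPRAT, 571 of 7358 (7.76%) were higher in its 41 members and 914 (12.4%) lower than in its 322 Mrc1-group nuclei. The lipid-associated list gave 5 higher and 1 lower of 10 in iWAT (median 0.83), and 3 higher and 0 lower of 11 in mPRAT (median 0.74). The V-ATPase list gave 4 higher and 0 lower of 16 in iWAT (median 0.53), and 3 higher and 1 lower of 16 in mPRAT (median -0.08). The resident macrophage list gave 15 of 18 lower in both, with 0 higher in iWAT and 1 in mPRAT, and medians of -1.82 and -2.38. Markers of adipose stem and progenitor cells moved with the iWAT members: 3 of 5 measured were higher and 0 lower (median 1.22), and the list stood at 376 CPM in members and 132 in Mrc1-group nuclei. Their part in the iWAT ratios was not tested.

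Single-gene ratios were close between depots for some genes and apart for others. The members compared were not of 1 kind, as described below. Nceh1 was at 427 and 109 CPM in iWAT (ratio 3.91, 2.95 to 5.19) and at 382 and 94.0 in mPRAT (ratio 4.07, 2.93 to 5.64), close to its ratio of 4.00 in lPRAT. Lipa was 4.32-fold higher in iWAT and 3.12-fold in mPRAT, and Atp6v1a 3.71-fold and 2.17-fold. Lpl was at 698 and 174 CPM in iWAT (ratio 4.00) but at 341 and 201 in mPRAT (ratio 1.70, 1.26 to 2.27). Cd36 was 1.48-fold higher in iWAT members, whereas in mPRAT it was lower, at 543 and 762 CPM (ratio 0.712, 0.574 to 0.876). Whether the depots differ beyond the spread between animals was not tested, since each is 1 library.

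Part of the mPRAT members stood apart from those of lPRAT. The following genes were chosen after their values were seen. Of the 41 members, 19 (46.3%) carried UMIs of at least 2 of Ttn, Gpm6b, Kynu and Colq, against 6 of 58 in iWAT and 0 of 787 in lPRAT. In mPRAT 356 kept nuclei carried them, 6 of them in the Mrc1 group, so most lay outside both macrophage classes. Of these 19 members, 13 had Timd4, 15 had Csf1r, 8 had Gpnmb and 0 had Adgre1, which 9 of the other 22 mPRAT members carried. mPRAT members also had more UMIs of the 5-gene T and NK cell list than its Mrc1-group nuclei, 873 against 274 CPM in 10 of 41 members. All 4 measured genes of that list were at least 2-fold higher, and Il7r, which lymphocytes express, was at 326 CPM in members and 25.2 in Mrc1-group nuclei. The part of lymphocyte RNA in the mPRAT ratios was not tested.

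iWAT held a smaller set that carried other genes, also chosen after values were seen. There 7 of 58 members carried at least 2 of Adam23, Slco5a1, Mreg and Zfp366, against 0 of 787 in lPRAT and 8 of 41 in mPRAT. In iWAT 143 kept nuclei carried them, 1 of them in the Mrc1 group. All 7 iWAT members had Flt3, a receptor of dendritic cells and their precursors. Adgre1 was found in 3 of them, and Gpnmb, Timd4 and Csf1r in 0. Of the 8 mPRAT members, 2 had Flt3, 5 had Timd4, 5 had Csf1r and 0 had Adgre1. In lPRAT Flt3 had 1 UMI in all members. The member shares, list counts and single-gene ratios given for iWAT and mPRAT include these nuclei.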

How the data were processed

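The authors deposited filtered matrices of UMI counts per gene and nucleus, 1 for each of 12 single-nucleus libraries (10x Genomics 3′ chemistry, sorted nuclei). They were made with Cell Ranger 7.0.0 and mm10, per the submitters' processing notes. These deposited counts are raw and whole, and the lowest total in any barcode was 500 UMIs. The settings for strand and introns are not given in the sources used here. Barcodes under 300 detected genes or over 10% mitochondrial UMIs were dropped, and the marker sums given in the report were taken from raw counts. UMIs were summed per class and library, divided by their total and scaled to CPM. Ratios used genes with at least 20 UMIs over both classes, without the 15 rule genes, after adding 10 CPM. Named genes were those of the lists, and the 25 highest and 15 lowest by log2 ratio, leaving out mitochondrial genes and Gm or Rik names. The members and lists were chosen with earlier results of these data known. Depth was matched by thinning each nucleus to 1000 UMIs. Doublet scores came from Scrublet in scanpy 1.11.5, and no doublet was removed from the values reported. Intervals were exact Clopper-Pearson and Poisson intervals (scipy 1.17.1), and differences of shares had Newcombe intervals built from them. TMM factors came from edgeR 4.0.16 in R 4.3.3. The ratio script was tested on simulated data. Positions were taken from GENCODE M21 (GRCm38, the build of mm10), where 32235 of 32285 gene identifiers were found, and promoters from RefSeq. Alternatives were thinning, doublet removal, a minimum of 500 genes, no mitochondrial limit, at least 3 UMIs of the 3 genes, a required macrophage UMI, other added CPM, other count minimums, TMM scaling and the mean CPM per nucleus.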

Additional observations from a re-analysis of the deposited data

Results flagged for a closer look

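The member share moved in opposite directions after cold in different depots, and the difference between depots was not tested because each group is 1 library. The iWAT share differed by -0.559 percentage points, that of mPRAT by -0.0419 and that of iBAT by 0.0394. The mPRAT and iBAT intervals include 0 and both signs turned under some alternatives. Without the mitochondrial limit the mPRAT difference was -0.207 points (-0.351 to -0.0690), which excludes 0. The cold mPRAT library then held 18 members of 11134 barcodes, against 12 of 3781 with the limit.

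Barcodes left out by the mitochondrial limit also met the marker sums. There were 19 in lPRAT at 6 months, 5.71% of 333 such barcodes, and 6 in mPRAT after cold, 0.0816% of 7353.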

How the results depend on the processing

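Results were recomputed with 1 choice changed at a time, except that thinning to 1000 UMIs also left out shallower nuclei (1066 of 5966 in lPRAT at 6 months, 1897 of 3279 at 2 months). The member share of lPRAT at 6 months was 6.72% at 500 UMIs, a depth chosen after seeing the data, where its difference from 2 months was 6.69 points. Members as a share of marker-defined macrophages there were 68.9% at 1000 UMIs and 49.4% at 500. The iWAT difference after cold was -0.305 points at 1000 UMIs and -0.177 at 500. The mPRAT difference turned to 0.0456 at 1000 UMIs and to 0.0105 with at least 3 UMIs of the 3 genes, and was -0.207 without the mitochondrial limit, and the iBAT difference to -0.00316 at 500 UMIs. With 1 CPM added, 782 genes were higher and 970 lower. The cause was not tested. The other 47 recomputed shares, differences and gene counts stayed within the interval of the reported value or within 1.5 times the count. Of single-gene ratios, 977 stayed within their interval and 199 moved. TMM scaling gave 51.8% of calls as higher, against 42.6%. No paired analysis was possible because each group is 1 library, the groups share fewer than 2 replicate numbers and no label ties libraries to animals. Members outside lPRAT at 6 months were few, which limits every statement on the other libraries.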
